A study of Mus musculus with 16 samples.

Results

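Genes of cellular iron handling, 10 of the 20622 genes in the total RNA tables, were followed in mouse lung tumour cells with and without the mRNA helicase eIF4A2. They were chosen by name and grouped by role: Tfrc, Slc11a2 and Steap3 for uptake, Fth1, Ftl1 and Ncoa4 for storage and its release, Slc40a1 for export, and Aco1, Ireb2 and Fbxl5 for regulation. All 10 symbols matched a gene identifier in both kinds of table. KM cells came from the left lung lobe, with several tumours, of 1 male mouse carrying Rosa26 LSL-MYC/LSL-MYC alleles, so both lines carry extra MYC, and the culture was enriched for epithelial cells against fibroblasts. KM NTC cells had received a CRISPR vector with a non-targeting guide, and KM 4A2cr cells were a pool of 4 clones made with a guide against the coding region of Eif4a2. Neither line was treated. Ribosome-protected fragments (RPFs, the pieces of mRNA shielded by a ribosome) and cytoplasmic total RNA were sequenced from the same lysate, with 4 replicates of each line and 16 libraries in all. The replicates were independent experiments harvested on different days. Libraries of the 2 lines with the same replicate number deviated together across genes, but whether a number marks 1 day for both lines is not given in the sources used here.

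Cells take up transferrin-bound iron through the transferrin receptor, move it out of the endosome through a divalent metal transporter after reduction by a STEAP reductase, store it in ferritin cages built of heavy and light chains, and release it through ferroportin. Iron regulatory proteins, encoded by Aco1 and Ireb2, bind a hairpin called the iron-responsive element when iron is scarce. Such an element in the 5′ leader of the ferritin and ferroportin mRNAs blocks their translation when bound, while several in the 3′ region of the transferrin receptor mRNA protect it from decay. Lung epithelium meets inhaled iron and carries this machinery to keep free iron low. Sequences of the elements were not used here.

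Total counts ran from 4512403 to 9621848 in the RPF libraries and from 5350919 to 9312622 in the total RNA libraries, with the fewest in replicate 4 of each line and kind. Eif4a2 itself, the targeted gene, fell in RPFs in 4 of 4 pairs (log2 fold change -0.49, SE 0.15, edgeR adjusted p = 0.0941, and 0.3 to 0.377 when replicate 1, 2 or 3 was left out) and had a total RNA log2 fold change of -0.18 (SE 0.13, edgeR adjusted p = 0.503). A guide that disrupts the reading frame need not remove the transcript, so the RNA level is a weak check of the labels. Of 14 epithelial markers, 7 were at 10 CPM (counts scaled to the size of the library) or more in every total RNA library, Epcam among them at 956 to 2762 CPM, while Sftpc of alveolar type II cells had 0 counts. Of the 7 epithelial markers tested in RPFs, Abca3, Epcam and Cdh1 rose (edgeR adjusted p = 0.050, 0.077 and 0.0845) and 0 fell. At an edgeR adjusted p under 0.1, 679 of all 10291 genes tested rose and 383 fell. The median log2 fold change of the 7 markers was 0.13, against -0.01 over all genes. Among the listed keratins, those below 0 in RPFs were Krt8, Krt18 and Krt7, at -0.05, -0.10 and -0.06 (edgeR adjusted p = 0.847, 0.668 and 0.801). The epithelial markers summed to 5186 to 6472 CPM in KM NTC and 6182 to 8780 CPM in KM 4A2cr cells. Erythroid markers summed to at most 0.691 CPM, fibroblast markers to at most 9.96 CPM and endothelial markers to at most 7.28 CPM. Macrophage and leukocyte markers summed to 80.8 to 195 CPM in KM NTC and 127 to 181 CPM in KM 4A2cr cells, with Adgre1, Marco, Lyz2, C1qa and C1qb at 0 counts and Ptprc at most 1.76 CPM. Most of that sum was Cd68 and Mrc1, and Cd68 stood at 162 and 153 CPM in replicate 4 of the KM NTC and KM 4A2cr lines against 19.4 to 39.4 CPM in replicates 1 to 3. In such bulk samples fewer cells of a type and less RNA per cell cannot be told apart, and the part of these markers in the values below was not tested.

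On the deposited TPM scale (which allows for transcript length), Fth1 was the most abundant member, at 1838 to 3324 TPM over the 8 total RNA libraries. Ftl1 followed at 725 to 1532 TPM, below Fth1 in every library, and its range overlapped that of Tfrc, 296 to 2296 TPM. All other members were scarcer. Fbxl5 ran from 69.9 to 131 TPM, Ncoa4 from 35.7 to 70.5, Ireb2 from 18.1 to 55.9, Slc11a2 from 23.0 to 50.0, Slc40a1 from 9.01 to 38.5 and Aco1 from 5.58 to 20.6, each overlapping its neighbour in that order. Steap3, a ferric reductase best known from erythroid precursors, was close to absent, at 0.11 to 0.52 TPM.

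The first comparison asked whether loss of eIF4A2 changed the members' footprints, RNA or translational efficiency (RPFs relative to total RNA). No member passed the test. In RPFs 0 of 9 tested members were called, where edgeR called 10.3% of all 10291 genes tested at an adjusted p of 0.1. In total RNA 0 of 9 members were called against 6.13% of 10880 genes, and in translational efficiency 0 of 9 against 2.87% of 9989 genes. Steap3, with 0 to 10 RPF counts and 1 to 6 total RNA counts per library, was too scarce to test. At an unadjusted edgeR p under 0.05, members numbered 0 in RPFs, 0 in total RNA and 3 in translational efficiency (Fth1, Ftl1 and Fbxl5). Over all genes tested the numbers at that cutoff were 2411 of 10291, 1995 of 10880 and 1409 of 9989. At an adjusted p of 0.1 a DESeq2 test also called 0 members in each. The 2 lines' CPM values overlapped for all 9 tested members in RPFs and in total RNA, where 2.13% and 1.97% of all tested genes had groups that did not overlap. The median log2 fold change of the 9 members was -0.13 in RPFs, -0.06 in total RNA and -0.14 in translational efficiency, against -0.01, 0.01 and -0.02 over all genes tested. Standard errors were 0.13 to 0.33 in RPFs and 0.12 to 0.24 in total RNA and the widest 95% interval was that of Ftl1 in RPFs, from -1.26 to 0.21.

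The calls differed once replicate 4 was left out. Without it, Ftl1 (log2 fold change -0.92, edgeR adjusted p = 0.0271) and Ncoa4 (-0.33, edgeR adjusted p = 0.0327) were called in RPFs, where 33.4% of all genes tested were then called. In total RNA, Slc11a2 (0.28, edgeR adjusted p = 0.0817) and Aco1 (-0.30, edgeR adjusted p = 0.0627) were called, beside 29.8% of all genes. In translational efficiency Ftl1 alone was called (-0.81, edgeR adjusted p = 0.00713), beside 7.94% of all genes. Fth1 and Ftl1 were called in translational efficiency when no filter was set on low counts (-0.30 and -0.53, edgeR adjusted p = 0.076 and 0.0463), with 3.41% of all genes.

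**Figure D1:**
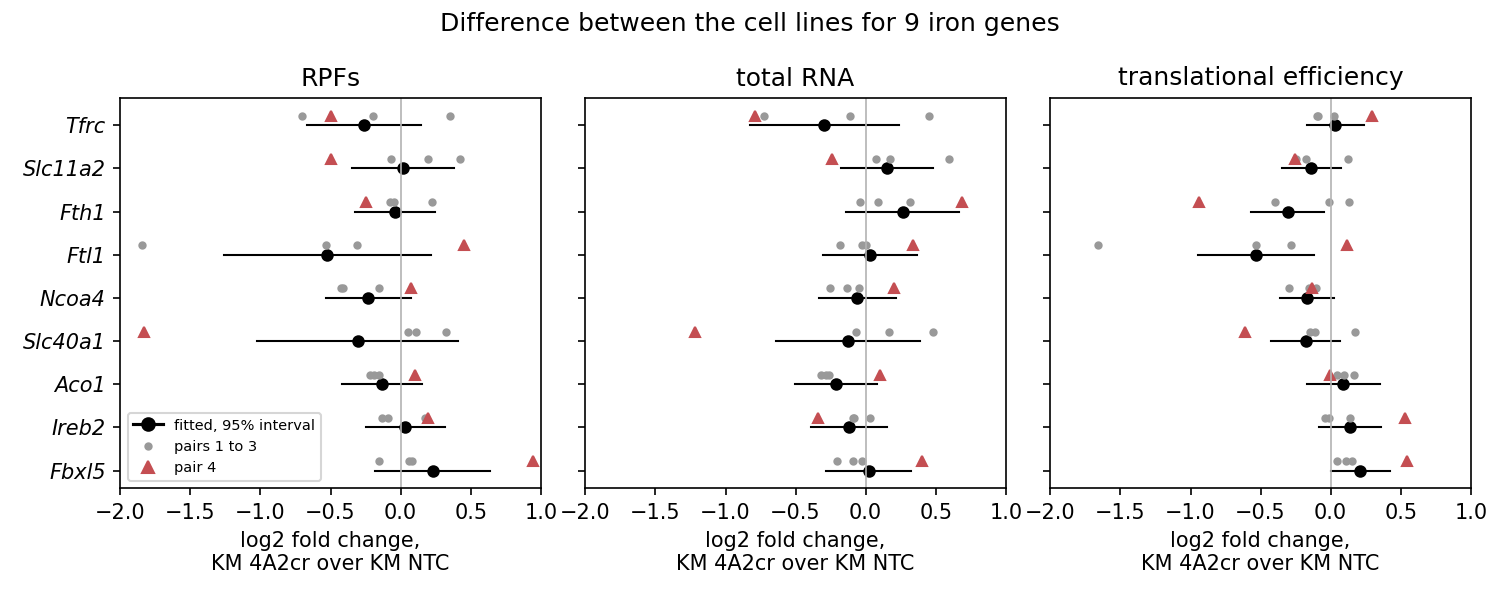
Log2 fold change of KM 4A2cr over KM NTC cells for 9 iron genes in RPFs, total RNA and translational efficiency, with the fitted value and its 95% interval in black, pairs 1 to 3 in grey and pair 4 as a red triangle. Pair 4 lies at the edge of the spread for Slc40a1 (-1.83 in RPFs), Fbxl5 (0.95 in RPFs) and Fth1 (-0.94 in translational efficiency), and Ftl1 has its lowest value in pair 3.

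Among the uptake genes, Tfrc, the transferrin receptor, had RPF levels of 4849, 1881, 3899 and 3304 CPM in KM NTC replicates 1 to 4 and of 6201, 1639, 2393 and 2338 CPM in KM 4A2cr replicates 1 to 4. Its total RNA levels were 3719, 1170, 2596 and 1703 CPM in KM NTC and 5081, 1083, 1570 and 983 CPM in KM 4A2cr cells. Replicate 1 was the highest in both lines and both kinds of library, and the lines overlapped. KM 4A2cr was higher in pair 1 and lower in pairs 2, 3 and 4, in footprints and in RNA alike, giving a log2 fold change of -0.26 in RPFs (SE 0.18, edgeR adjusted p = 0.419) and -0.30 in total RNA (SE 0.24, edgeR adjusted p = 0.563). The RPF value was -0.47 without replicate 1 and -0.09 without replicate 3, and the total RNA value of Tfrc was -0.54 without replicate 1, -0.15 without replicate 3 and -0.14 without replicate 4. The translational efficiency of Tfrc differed by 0.03 (95% interval -0.17 to 0.24).

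Slc11a2, the divalent metal transporter DMT1, had 166.7, 91.5, 157 and 227 CPM of RPFs in KM NTC and 224, 105, 149 and 161 CPM in KM 4A2cr cells. In total RNA it stood at 68.3, 43.1, 56.9 and 88.0 CPM in KM NTC and at 103.5, 45.3, 64.2 and 74.5 CPM in KM 4A2cr cells. KM 4A2cr was higher in pairs 1 to 3 of total RNA and lower in pair 4. The fitted difference was 0.02 in RPFs (SE 0.16, edgeR adjusted p = 0.965) and 0.15 in total RNA (SE 0.15, edgeR adjusted p = 0.631).

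Fth1, the ferritin heavy chain with the ferroxidase activity that loads iron, had RPF levels of 129.5, 429, 277 and 750.2 CPM in KM NTC and 151, 406.5, 267.5 and 631 CPM in KM 4A2cr cells. The lines overlapped, and in both replicate 1 was lowest and replicate 4 highest. In total RNA it stood at 1146, 692, 1093 and 1502 CPM in KM NTC and at 1220, 863, 1063 and 2418 CPM in KM 4A2cr cells, where replicate 1 was not the lowest. The log2 fold change was -0.04 in RPFs (SE 0.13, edgeR adjusted p = 0.878) and 0.26 in total RNA (SE 0.18, edgeR adjusted p = 0.494). Translational efficiency differed by -0.31 (95% interval -0.57 to -0.05, edgeR adjusted p = 0.245), with pair values of 0.13, -0.40, -0.01 and -0.94, and by -0.08 without replicate 4.

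Ftl1, the ferritin light chain that helps the iron core form, drew few footprints under its own name. Its RPF counts were 36, 128, 123 and 89 in KM NTC and 18, 83, 32 and 95 in KM 4A2cr cells, against 2098 to 4635 total RNA counts. Counts of the same kind lay on Ftl1-ps1, a copy that RefSeq lists as a pseudogene on chromosome 13 and that the transcript set of the study kept, with 437 to 1671 RPF counts and 1193 to 2635 total RNA counts. Of the counts on both, Ftl1 held 3.96% to 8.95% in RPFs and 62.1% to 64.3% in total RNA, so the 2 kinds of library divide the reads of this family differently and values under either name are uncertain. The log2 fold change of Ftl1 was -0.52 in RPFs (SE 0.33, edgeR adjusted p = 0.371), 0.03 in total RNA (SE 0.15, edgeR adjusted p = 0.945) and -0.53 in translational efficiency (SE 0.20, edgeR adjusted p = 0.192). Without replicate 3 the RPF value of Ftl1 was -0.06 and the translational efficiency value -0.13.

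With Ftl1 and Ftl1-ps1 summed, a step chosen after the data were seen, light chain footprints were 60.7, 169, 188 and 369 CPM in KM NTC and 55.0, 136, 98.8 and 336 CPM in KM 4A2cr cells. Each KM 4A2cr value lay below that of its pair, while the ranges of the lines overlapped. Total RNA was 881, 480.2, 703 and 1318 CPM in KM NTC and 853, 469, 623 and 1676 CPM in KM 4A2cr cells. The log2 fold change was -0.38 in RPFs (SE 0.16, edgeR adjusted p = 0.19) and 0.02 in total RNA (SE 0.16, edgeR adjusted p = 0.964). Summed light chain translational efficiency fell by 0.41 on the log2 scale (95% interval of the change -0.62 to -0.19, edgeR adjusted p = 0.0606), and without replicate 4 the change was -0.38 (edgeR adjusted p = 0.0272). With the copies kept apart, Ftl1-ps1 was called in translational efficiency (-0.38, edgeR adjusted p = 0.0839) and Ftl1 was not (edgeR adjusted p = 0.192). Ftl1-ps1 held most of the summed RPF counts, so the summed footprints mainly follow that copy. Over all genes, with the copies apart, 2.87% were called in translational efficiency, and 7.94% without replicate 4. The summed values were not computed without replicate 1, 2 or 3. Summed footprints per RNA were lower in KM 4A2cr in 4 of 4 pairs. The KM 4A2cr ratio was 0.0644 against 0.0690 in replicate 1 and 0.290 against 0.352 in replicate 2. It was 0.159 against 0.268 in replicate 3 and 0.201 against 0.280 in replicate 4. Kept apart, Ftl1 was higher in KM 4A2cr in pair 4 (log2 difference 0.114) and Ftl1-ps1 in pair 1 (0.006). The share of all genes with 4 agreeing pairs was not counted.

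**Figure D2:**
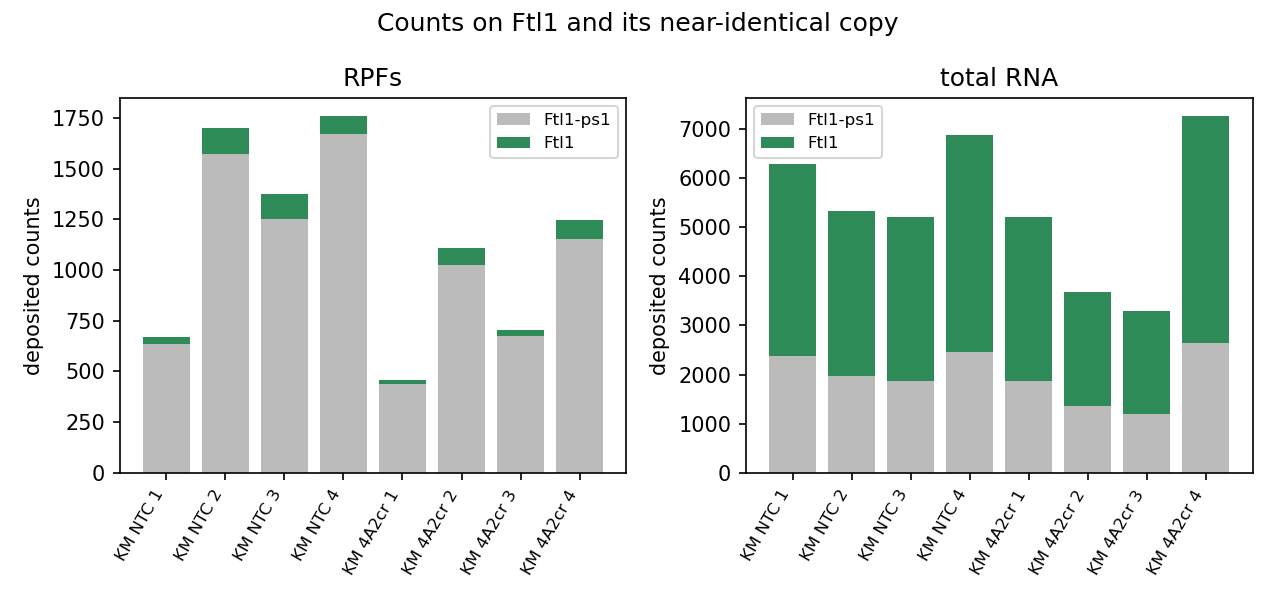
Deposited counts on Ftl1 (green) and on Ftl1-ps1 (grey), stacked, in each of the 8 RPF and 8 total RNA libraries. Ftl1 takes at most 8.95% of the stack in RPFs and at least 62.1% in total RNA.

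Ncoa4, the receptor that carries ferritin to the lysosome for breakdown, was even across the libraries. Its RPF levels were 134, 159, 149.7 and 130.5 CPM in KM NTC and 100.5, 144, 111 and 137 CPM in KM 4A2cr cells, lower in KM 4A2cr in pairs 1 to 3 and higher in pair 4. Total RNA ran from 97.3 to 118 CPM over all 8 libraries. The log2 fold change was -0.23 in RPFs (SE 0.13, edgeR adjusted p = 0.336) and -0.06 in total RNA (SE 0.13, edgeR adjusted p = 0.854), and RPFs relative to RNA were lower in KM 4A2cr in 4 of 4 pairs (-0.17, SE 0.09, edgeR adjusted p = 0.43). How many of all genes had 4 pairs in 1 direction of translational efficiency was not counted.

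Slc40a1, ferroportin, the only known exporter of ferrous iron, had RPF levels of 14.2, 102.5, 95.2 and 166 CPM in KM NTC and 15.3, 128.5, 98.8 and 46.6 CPM in KM 4A2cr cells. Total RNA was 26.2, 45.4, 54.2 and 63.0 CPM in KM NTC and 25.0, 63.4, 61.0 and 27.0 CPM in KM 4A2cr cells. Pairs 1 to 3 differed by 0.05 to 0.33 on the log2 scale in RPFs, and pair 4 by -1.83. The fitted log2 fold change of -0.31 in RPFs (SE 0.32, edgeR adjusted p = 0.603) and of -0.13 in total RNA (SE 0.23, edgeR adjusted p = 0.825) rested on that pair, and without replicate 4 both turned to 0.17 and 0.22.

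Among the regulators, Aco1, iron regulatory protein 1 and also the cytosolic aconitase, had 45.5, 45.2, 29.5 and 20.4 CPM of RPFs in KM NTC and 40.8, 39.5, 25.3 and 21.8 CPM in KM 4A2cr cells. The values of the lines interleaved, with KM 4A2cr lower in pairs 1 to 3 of RPFs and of total RNA and higher in pair 4. The log2 fold change was -0.13 in RPFs (SE 0.13, edgeR adjusted p = 0.577) and -0.21 in total RNA (SE 0.13, edgeR adjusted p = 0.444).

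Ireb2, iron regulatory protein 2, lay between 59.4 and 80.5 CPM in all 8 RPF libraries and between 94.7 and 154 CPM in all 8 total RNA libraries. Its log2 fold change was 0.03 in RPFs (SE 0.13, edgeR adjusted p = 0.899) and -0.12 in total RNA (SE 0.12, edgeR adjusted p = 0.663). Fbxl5, the iron-sensing F-box protein that sends iron regulatory protein 2 for degradation, had 79.7 to 102 CPM of RPFs in 7 of the 8 libraries and 196 CPM in KM 4A2cr replicate 4. Fbxl5 differed by 0.23 in RPFs (SE 0.18, edgeR adjusted p = 0.491) and by 0.02 in total RNA (SE 0.14, edgeR adjusted p = 0.962). Its RPFs relative to RNA were higher in KM 4A2cr in 4 of 4 pairs (0.21, SE 0.10, edgeR adjusted p = 0.348), by 0.05 to 0.15 in pairs 1 to 3 and by 0.54 in pair 4. As for Ncoa4, the share of all genes with such agreement was not counted. With total RNA of the RPF isoform only, the Fbxl5 value was 0.115 (edgeR adjusted p = 0.729).

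**Figure D3:**
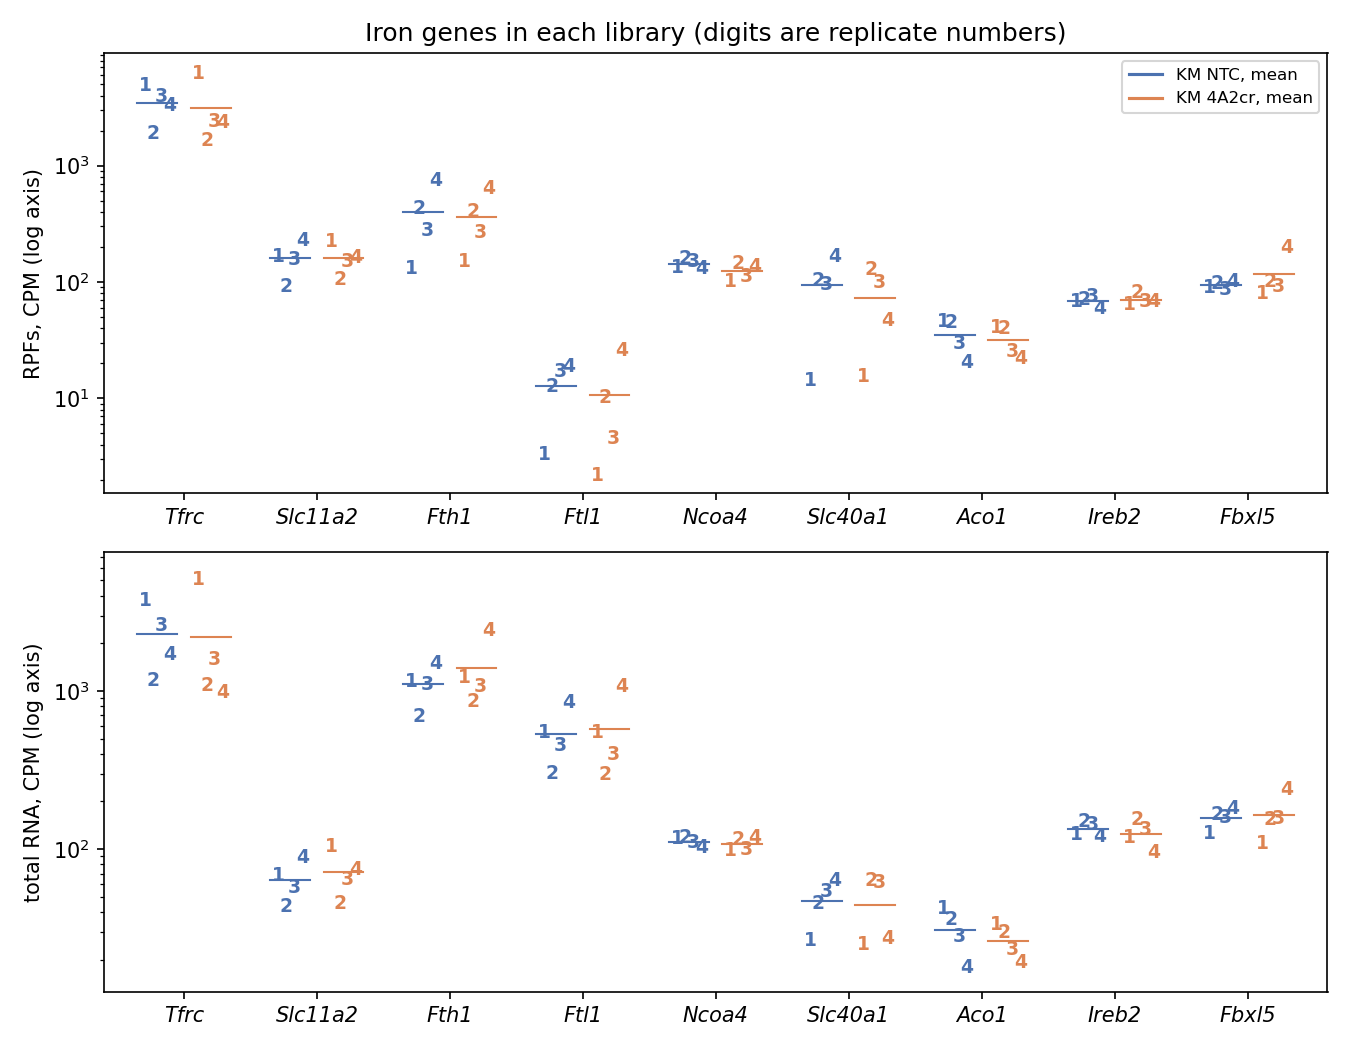
CPM on a log axis in each RPF library (top) and total RNA library (bottom) for 9 iron genes, each digit marking a replicate number and each bar the mean of a line's 4 libraries. The colours of the lines interleave for every gene, while replicate 1 of both lines sits low for Fth1, Ftl1 and Slc40a1 footprints and high for Tfrc.

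The second comparison was between replicate numbers, within the same models. It was added after the data were seen. Replicate numbers differed widely over all genes: the F test of the 4 replicate numbers called 65.9% of all genes in RPFs and 61.1% in total RNA, and 7 of 9 and 7 of 9 members. In translational efficiency the same test called 26.2% of genes and 4 of 9 members, and the 4 were Fth1, Slc40a1, Ftl1 and Tfrc. By edgeR p-value they ranked 17, 26, 38 and 438 of 9989 genes (edgeR adjusted p = 6.47e-08, 2.70e-07, 3.84e-06 and 0.00334). The other 5 members, Slc11a2, Ireb2, Aco1, Ncoa4 and Fbxl5, had edgeR adjusted p-values of 0.262 to 0.714.

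The ratio of RPF CPM to total RNA CPM of Fth1 was 0.113, 0.621, 0.253 and 0.499 in KM NTC replicates 1 to 4 and 0.124, 0.471, 0.252 and 0.261 in KM 4A2cr replicates 1 to 4. Replicate 1 was lowest and replicate 2 highest in both lines, and the lines were close to each other within replicates 1 and 3. Averaged over the lines, replicate 2 was 4.56-fold above replicate 1. For Slc40a1 the ratio was 0.542, 2.26, 1.75 and 2.64 in KM NTC and 0.613, 2.03, 1.62 and 1.73 in KM 4A2cr cells, so replicate 1 stood apart in both lines, and the largest difference between replicate means was 3.68-fold. For Ftl1 the ratio was 0.00596, 0.0420, 0.0373 and 0.0221 in KM NTC and 0.00397, 0.0344, 0.0113 and 0.0240 in KM 4A2cr cells, a 7.27-fold range of replicate means on low counts. Its copy Ftl1-ps1 had ratios of 0.172 and 0.173 in replicate 1 and of 0.417 to 0.879 in the other replicates, a 4.62-fold range.

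Tfrc showed the smaller range of 1.70-fold, with ratios of 1.304, 1.607, 1.502 and 1.94 in KM NTC and 1.22, 1.51, 1.53 and 2.38 in KM 4A2cr cells. Replicate 1 was the lowest and replicate 4 the highest in both lines. The replicate means of the other tested members ranged less, by 1.14-fold for Slc11a2, 1.19-fold for Ireb2, 1.20-fold for Ncoa4, 1.21-fold for Aco1 and 1.27-fold for Fbxl5. Single lysates ran from 0.47 to 0.72 for Ireb2 and from 0.55 to 0.83 for Fbxl5. They ran from 2.13 to 2.75 for Slc11a2, 1.03 to 1.37 for Ncoa4 and 1.05 to 1.34 for Aco1. With total RNA of the RPF isoform only, the log2 range of Slc11a2 was 0.39 (edgeR adjusted p = 0.276), against 0.19. Replicate 1, with the lowest footprints per RNA of Fth1, Ftl1 and Slc40a1, also had the most Tfrc RNA, 3719 and 5081 CPM. Outside replicate 1 the order of Fth1 ratios reversed that of Tfrc RNA in KM NTC but not in KM 4A2cr cells. In KM 4A2cr, replicate 4 had the least Tfrc RNA, 983 CPM, and a Fth1 ratio of 0.261 against 0.471 in replicate 2. Fth1, Ftl1 and Slc40a1 are the members known to carry the element in their 5′ leader, and whether the element had a part was not tested.

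The result rests in part on replicate 1. Without it Fth1 (edgeR adjusted p = 0.000975, 1.10 between the highest and lowest replicate means on the log2 scale) and Tfrc (edgeR adjusted p = 0.0826) were still called, and Ftl1 (edgeR adjusted p = 0.108) and Slc40a1 (edgeR adjusted p = 0.228, log2 range 0.34) were not. Without replicate 2, 3 or 4 all 4 were called. The test called 14.1%, 14.5%, 28.6% and 17.8% of all genes without replicate 1, 2, 3 and 4. Cells, medium, day and library preparation cannot be told apart here. Iron in the cells or medium was not measured in these files.

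**Figure D4:**
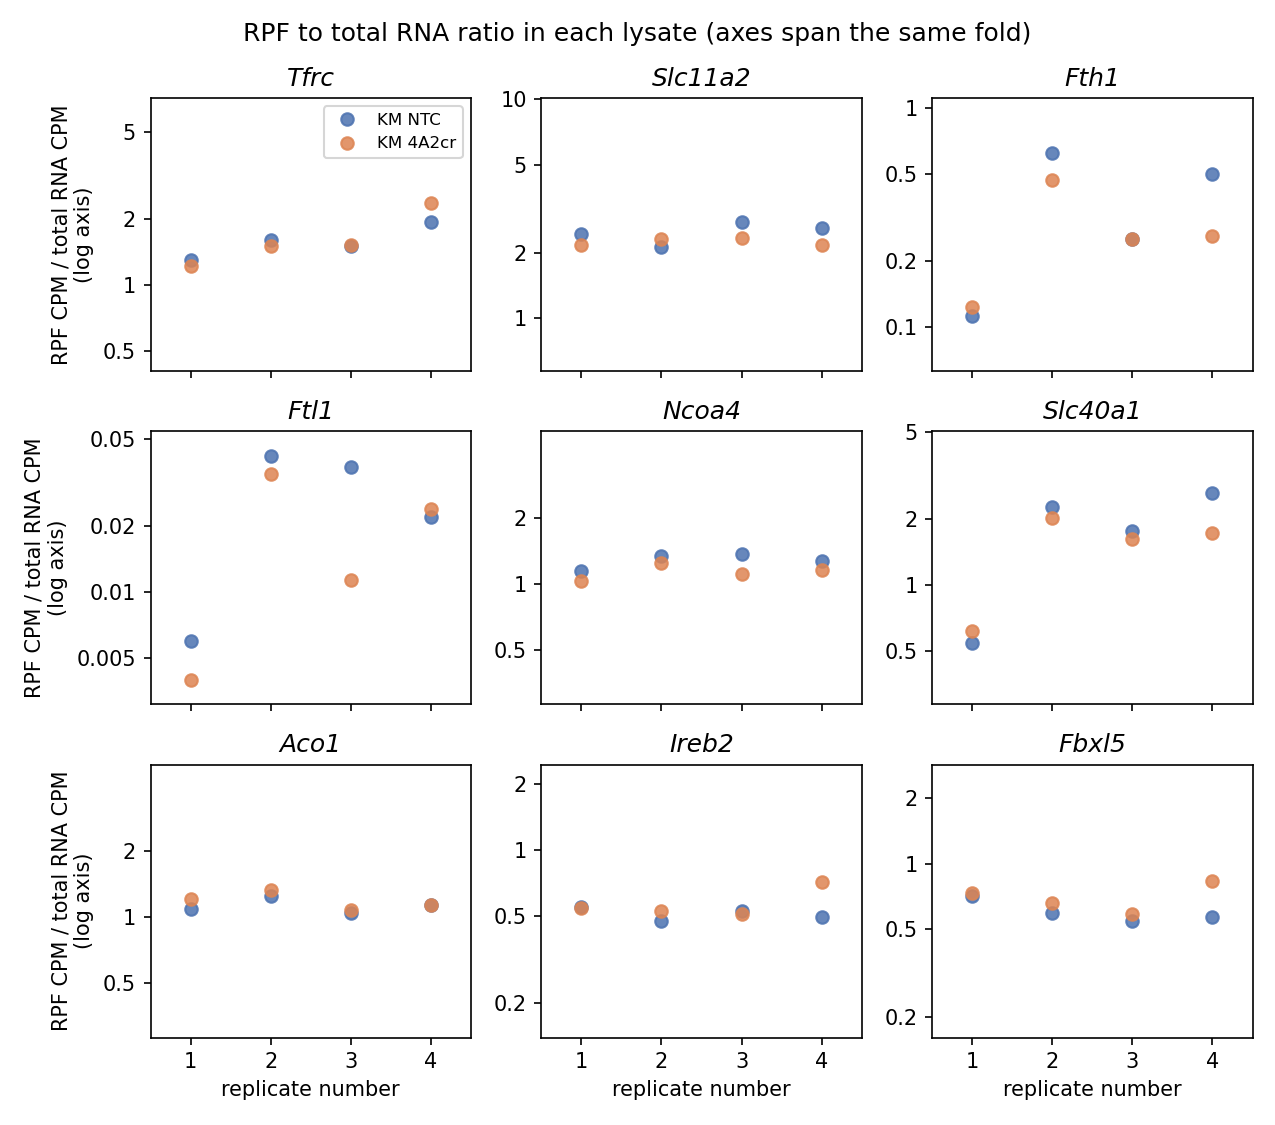
RPF CPM over total RNA CPM in each lysate by replicate number for 9 iron genes, on log axes that span the same fold in every panel, with KM NTC in blue and KM 4A2cr in orange. Fth1, Ftl1 and Slc40a1 have their lowest points in replicate 1 of both lines, and Slc11a2, Ncoa4, Aco1, Ireb2 and Fbxl5 stay within 1.27-fold between replicate means.

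**Figure D5:**
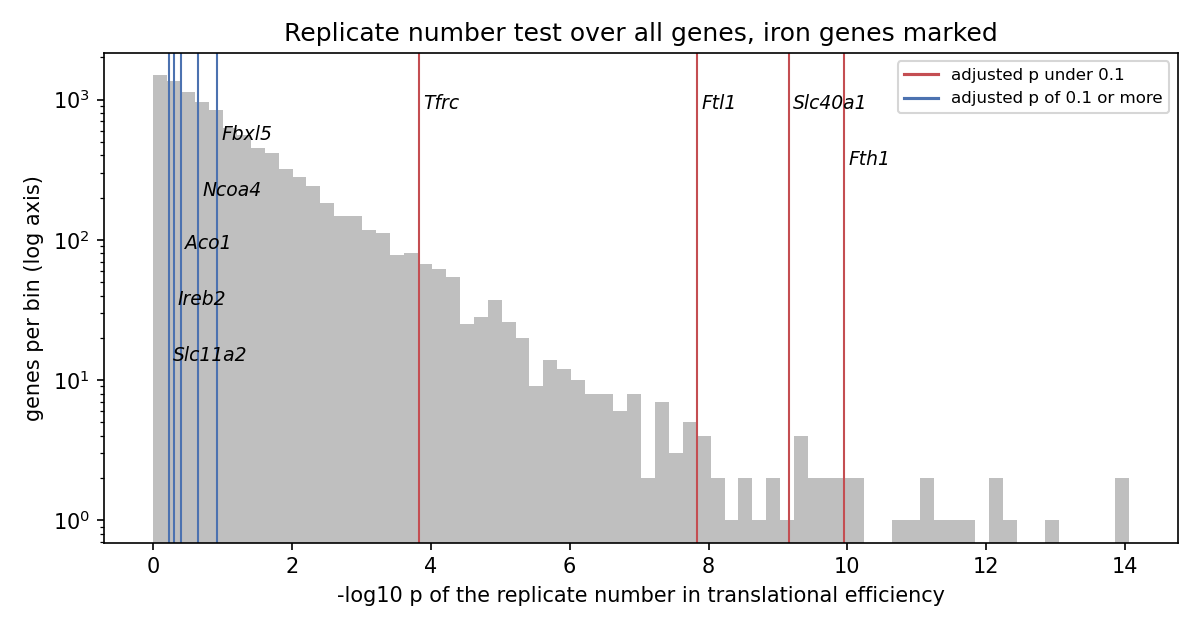
Distribution over 9989 genes of −log10 p of the replicate number in translational efficiency (edgeR F test, genes per bin on a log axis), with the iron genes as vertical lines. Fth1, Slc40a1 and Ftl1 lie in the sparse right tail at ranks 17, 26 and 38, and 5 members lie at the left.

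The other genes of the pathway were read in 4 lists for the comparison of the lines. Of the other genes of iron uptake, transport and regulation, 17 were tested in RPFs, 2 rose and 1 fell, and of 15 tested in total RNA 1 rose and 1 fell. Both mitoferrins rose in RPFs: Slc25a37, which carries iron into mitochondria, from 17.0 ± 13.6 to 34.3 ± 30.0 CPM (SD, n = 4, edgeR adjusted p = 0.0333) and Slc25a28 from 8.08 ± 2.51 to 20.0 ± 17.4 CPM (SD, n = 4, edgeR adjusted p = 0.054), each in 4 of 4 pairs. Slc25a28 also rose in total RNA (0.69, edgeR adjusted p = 0.0858), and Slc25a37 rose in translational efficiency (0.51, edgeR adjusted p = 0.0839), a call lost whichever replicate was left out (0.34, edgeR adjusted p = 0.191, without replicate 4). Lrp2, megalin, an endocytic receptor with many ligands, fell in RPFs from 209 ± 99.2 to 128 ± 94.7 CPM (SD, n = 4, edgeR adjusted p = 0.0216) and in total RNA (-0.74, edgeR adjusted p = 0.0303), in 4 of 4 pairs of each.

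Of 22 genes of haem synthesis, transport and breakdown, 1 rose and 1 fell in RPFs and 2 rose in total RNA. Slc46a1, a carrier of haem and folate, rose in RPFs from 23.1 ± 8.79 to 39.9 ± 8.67 CPM (SD, n = 4, edgeR adjusted p = 0.0316) and in total RNA (0.68, edgeR adjusted p = 0.0989, 3 of 4 pairs). Slc48a1, a haem transporter of the lysosome, rose in total RNA (0.49, edgeR adjusted p = 0.0892), and Blvra, biliverdin reductase A, fell in RPFs (-0.45, edgeR adjusted p = 0.0991). Of 27 genes of iron-sulphur cluster assembly none was called in RPFs or total RNA by edgeR, and Bola3 rose in translational efficiency (0.62, edgeR adjusted p = 0.0667). Of 20 genes of ferroptosis and glutathione defence, 2 rose and 1 fell in RPFs and none was called in total RNA: Lpcat3, which loads polyunsaturated chains into phospholipids (0.57, edgeR adjusted p = 0.0669), and Vkorc1l1 (0.57, edgeR adjusted p = 0.0849, 3 of 4 pairs) rose, and Txnrd1, thioredoxin reductase, fell (-0.41, edgeR adjusted p = 0.0865). A DESeq2 test did not call Blvra in RPFs (adjusted p = 0.223), Slc25a28 and Slc46a1 in total RNA (0.112 and 0.135) or Slc25a37 in translational efficiency (0.137), and gave no adjusted p for Bola3. Bola3 was not called with the RPF isoform only (edgeR adjusted p = 0.177). Bola3 and Vkorc1l1 were named after their values were seen.

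Counting the 4 lists together, 8 of 86 genes were called in RPFs (9.30%, against 10.3% of all genes), 4 of 84 in total RNA (4.76% against 6.13%) and 2 of 84 in translational efficiency (2.38% against 2.87%), shares close to those over all genes. Without replicate 4 the counts were 32, 29 and 6 (37.2%, 34.5% and 7.14% of the lists, against 33.4%, 29.8% and 7.94% of all genes). They were 3, 1 and 0 without replicate 1, and 0 in each without replicate 2 or without replicate 3. The direction of the calls moved with the scaling. With TMM factors 5 rose and 3 fell in RPFs and 3 rose and 1 fell in total RNA, whereas with scaling by library size only, under which the median of all genes was -0.15 in both, 4 were higher and 14 lower in RPFs and 0 higher and 4 lower in total RNA. In that setting Slc25a28, Slc46a1 and Slc48a1 were not called in total RNA (edgeR adjusted p = 0.126, 0.16 and 0.159), nor was Vkorc1l1 in RPFs (0.112). The median log2 fold changes in RPFs were 0.13, -0.02, -0.03 and -0.15 in the order given above, against -0.01 over all genes. The replicate number test of translational efficiency called 5 of 15, 4 of 22, 7 of 27 and 5 of 20 genes of these lists, beside 26.2% of all genes and 4 of 9 members.

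In total RNA the isoform used for RPFs held 84.9% of Tfrc counts, 48.5% of Slc11a2, 48.5% of Ncoa4, 41.2% of Fth1 and 16.7% of Fbxl5. The share of that Ncoa4 isoform was 48.9%, 50.3%, 49.6% and 49.1% in KM NTC and 48.4%, 46.4%, 46.6% and 46.9% in KM 4A2cr cells. It was lower in KM 4A2cr in 4 of 4 pairs, by 2.40 percentage points, and the lines did not overlap. How often the isoform shares of other genes part in this way was not counted, so no result about Ncoa4 is drawn. The shares of Tfrc, Slc11a2, Fth1 and Fbxl5 overlapped between the lines. A two-sided exact sign-flip test over 4 pairs cannot pass the threshold of 0.1, so these shares are given without a test. The genes whose 8 within-pair log2 ratios lay closest to those of a member were Hectd4, Ndufa5 and Uqcrh for Fth1 (root mean square difference 0.13 to 0.15, median over 9988 genes 0.48), Rap1gap2, H2afx and Zfp948 for Ftl1 (0.25 to 0.30, median 0.81) and Nsdhl, Cntrob and Kif4 for Tfrc (0.18 to 0.19, median 0.66).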

How the data were processed

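Per the paper's methods, the authors trimmed reads, removed ribosomal and transfer RNA, aligned RPFs to 1 transcript a gene, the most abundant, of a filtered GENCODE vM27 set, collapsed duplicates by molecular identifier and deposited whole-number counts over the coding sequence. For total RNA they deposited RSEM (1.3.3) expected counts per isoform after Bowtie2 (2.3.5.1), and TPM values. Expected counts were summed per gene and rounded. No transcript of the 15235 in the RPF tables was left without a gene, and per-sample columns of other samples numbered 0.

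Tests were made in R 4.3.3 with edgeR 4.0.16 (filterByExpr, TMM factors within each kind, quasi-likelihood test) on terms for the cell line and for the replicate number. Translational efficiency was the interaction of line and kind in 1 model of 16 libraries. Adjusted p-values are Benjamini-Hochberg values over the whole table, called under 0.1. CPM is TMM-normalised, and pair log2 ratios used a prior count of 2. A global change of footprints or RNA leaves no trace. DESeq2 1.42.0 and other settings were alternatives. The scripts were tested on simulated data. Same-numbered samples of the 2 lines deviated together in all 4 pairs of each kind (correlation of deviations from the line means 0.575 to 0.782 over genes), on which the pairing rests. All cells derive from 1 mouse, so p-values measure the spread between experiments on these lines.

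The members and lists were chosen with earlier results of these data known. All 10 members are described, and from each further list the genes called in RPFs or total RNA with all 4 pairs in 1 direction, at most 5 by RPF p, are named. Like patterns were ranked by the root mean square difference of 8 within-pair log2 ratios. Symbols unmatched in the files were Hjv, Fdx2, Ciao3, Tyrobp and Ahsp. Symbols came from a gene name table, and RefSeq of GRCm38.p6, another build than the files', gave the chromosome of Ftl1-ps1. Part of the genotype shared by both lines and some other genes are not reported here.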

Additional observations from a re-analysis of the deposited data

Results flagged for a closer look

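Of 72 groups of 4 values examined, 5 held a value far from the other 3, by a gap test (Dixon's 95% limit) that chance passes in about 1 of 20 groups. Tfrc stood at 6201 CPM in RPFs and at 5081 CPM in total RNA in KM 4A2cr replicate 1, above the other 3 replicates of that line. The RPF log2 ratio of Slc40a1 in pair 4 was -1.83, below the other 3 pairs. The ratio of RPF to total RNA CPM of Ireb2 was 0.716 in KM 4A2cr replicate 4, above the other 3. The total RNA log2 ratio of Aco1 in pair 4 was 0.101, above the other 3 pairs.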

How the results depend on the processing

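Of the members' values under alternatives, 284 kept direction and side of the threshold, 8 were newly called and 24 turned sign, all 24 without a call. The replicate block changed the counts over all genes: without it 0 genes were called in RPFs, total RNA and translational efficiency (365, 362 and 22 at an unadjusted edgeR p under 0.05), with 0 of the 4 further lists in each. Members called were 0 in each with or without it. Over all genes, calls in RPFs were 1619 with library size only and 438 at a threshold of 0.05. In total RNA they were 1130 with library size only, 1268 with no filter and 321 at 0.05, and in translational efficiency 136 by DESeq2, 133 with library size only, 470 with no filter and 75 at 0.05. With library size only, 482 RPF calls were higher and 1137 lower (main 679 and 383), and in total RNA 262 and 868 (main 473 and 194), with the median of all genes at -0.15 in both. With upper-quartile factors the split was 534 and 464 in RPFs and 325 and 216 in total RNA. Leaving out each replicate in turn gave 32 to 3469 calls in RPFs, 63 to 3260 in total RNA and 15 to 800 in translational efficiency, with 0 to 2, 0 to 2 and 0 to 1 members called. With no filter, 2 members were called in translational efficiency.

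The 4 further lists held 18 RPF calls with library size only and 3 at 0.05. In total RNA they held 2 by DESeq2, 1 with upper-quartile factors, 8 with no filter, 1 at 0.05 and 1 with the RPF isoform only, and in translational efficiency 0 by DESeq2, 4 with relative log expression factors, 1 with library size only, 6 with no filter and 0 at 0.05. Leaving out each replicate gave 0 to 32, 0 to 29 and 0 to 6. The replicate number test called 1585 genes by DESeq2, and leaving out replicates 1398 (without replicate 1, 2 members) to 2872.

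Of the log2 fold changes that turned sign, Slc11a2 in RPFs was -0.0066 without the replicate block, -0.025 with upper-quartile factors, -0.11 with library size only and -0.12 to 0.19 leaving out replicates. Ireb2 in RPFs was -0.0072 with upper-quartile factors, -0.10 with library size only and -0.014 to 0.12 leaving out replicates. Leaving out replicates gave -0.13 to 0.029 for Fth1, -0.55 to 0.17 for Slc40a1 and -0.0050 to 0.36 for Fbxl5 in RPFs, and -0.15 to 0.0076 for Ncoa4, -0.36 to 0.22 for Slc40a1, -0.11 to 0.095 for Fbxl5 and -0.078 to 0.10 for Ftl1 in total RNA. In total RNA with upper-quartile factors Fbxl5 was -0.020 and Ftl1 -0.0088, with library size only Slc11a2 was -0.0026, Fbxl5 -0.14 and Ftl1 -0.13, and with no filter Fbxl5 was -0.00058. Tfrc in translational efficiency was -0.075 without the replicate block and -0.035 to 0.081 leaving out replicates. The isoform share difference ranged from -0.68 to 0.32 points for Tfrc and from -3.19 to 1.16 for Slc11a2. The causes were not tested, and scarce members such as Ftl1 footprints are limited by depth.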

Other observations

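Epas1, a further mRNA known to carry an iron-responsive element in the 5′ leader, was read after the values of the members were seen. It was scarce, at 0.29 to 1.29 TPM, and ranked 3623 of 9989 genes in the replicate number test of translational efficiency (edgeR adjusted p = 0.179).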
